A study of Mus musculus with 27 samples.

Results

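Gpx4 knockout organoids were compared at passage 15 and at passage 10, with 3 RNA-seq libraries at each passage. These 6 libraries were chosen by their labels from 21 organoid libraries in 7 groups of 3, in a series that lists 27 samples. The organoids were grown from stomach corpus of adult mice, from cells carrying a red reporter that were isolated by flow sorting, and were kept in Matrigel with a medium for proliferation. The knockout samples, at passages 15, 10 and 5, are labelled Gpx4F/F;Mist1Cre/ERT2;RFPLSL, a floxed Gpx4 allele with a tamoxifen-inducible Cre under control of the Mist1 locus and a red fluorescent reporter. The samples they are set against, called wild type here, are labelled Mist1Cre/ERT2;RFPLSL at the same passages and carry the same Cre and reporter without the floxed allele. The remaining group, Mist1- organoids at passage 5, enters no main test, only ranges over all libraries or groups and some alternative fits. The growth protocol of the knockout samples names the reporter genotype only. The labels give neither the number of mice or lines nor whether the 3 libraries of each group came from different cultures, and p-values then cover only the spread seen among those libraries, which may be technical. Cre acted only in cells that expressed Mist1 when it was induced.

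Gpx4 encodes the selenoenzyme that reduces lipid hydroperoxides in membranes with glutathione as its electron donor, and cells without it are prone to ferroptosis, an iron-dependent form of death by lipid peroxidation. Mist1, the product of Bhlha15, drives the secretory program of zymogen-producing chief cells in the stomach gland. The gland also holds surface mucous (pit) cells, which secrete the mucin Muc5ac, the trefoil peptide Tff1 and the gastrokines, mucous neck cells, acid-secreting parietal cells and the dividing cells of the isthmus. Cells in injured glands can take on mucous neck traits, a state called spasmolytic polypeptide-expressing metaplasia (SPEM).

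The knockout libraries held 16219463, 16990156 and 17097550 read counts in genes at passage 15, and 15342311, 13805585 and 17883836 at passage 10. Over all 21 libraries the totals were 13805585 to 19608956. The biological coefficient of variation, the spread between libraries beyond counting noise, was 1.87% in the knockout at passage 15 and 3.07% at passage 10, while it was 20.25% in wild type at passage 15 and 2.19% to 2.47% in the other groups. Levels are given as CPM, in which the counts of every library are scaled to the same total over genes. A gene rose or fell where its adjusted p was under 0.05, and log2 fold changes of passage 15 over passage 10 carry their standard error.

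Gpx4 itself (ENSMUSG00000075706, GRCm38 chromosome 10, 80047166 to 80056439) had 88.2, 84.4 and 89.4 CPM at passage 15, against 102, 99.3 and 89.6 CPM at passage 10. The groups did not overlap, but the lowest library of passage 10 stood just above the highest of passage 15. The log2 fold change was -0.14 ± 0.0415 (adjusted p = 0.00404), and it missed the threshold without the first library of passage 10 (log2 -0.10, adjusted p = 0.0678). Wild-type organoids at passage 10 had 108, 120.5 and 112 CPM, and each of these lay above every knockout library of passage 10. Gpx4 transcript was thus counted in all knockout libraries. The deleted exons are not given in the sources used here, so this count does not check the knockout label.

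Epithelial genes were abundant at both passages. The 8 core epithelial genes summed to 5781 to 5801 CPM at passage 15 and 6955 to 7150 CPM at passage 10, with 7 of them lower and 1, Epcam, higher. Krt8, a keratin of simple epithelia, averaged 1565 ± 1.66 CPM at passage 15 and 1867 ± 19.3 CPM at passage 10 (SD, n = 3 each), and the secreted chaperone Clu averaged 8863 CPM at passage 15. Of the defining chief cell genes, intrinsic factor (Cblif) had 2 counts over the 3 passage 15 libraries and 1 over the 3 passage 10 libraries, and pepsinogen Pga5 and gastric lipase Lipf had 0. The parietal proton pump subunit Atp4b had 1 count at passage 15 and 0 at passage 10. Markers of fibroblasts (Col1a1, 23 counts at passage 15 and 7 at passage 10), leukocytes (Ptprc, 12 counts at passage 15 and 23 at passage 10) and endothelium (Pecam1, 28 counts at passage 15 and 9 at passage 10) were likewise near 0. In bulk RNA, a change in the share of a cell type and a change in RNA per cell cannot be told apart, and that holds for every marker that follows.

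Of 14303 genes tested, 5427 were called between passages 15 and 10 (37.9%), 2573 of them higher (18%) and 2854 lower (20%). A change of at least 2-fold was seen in 604 genes (4.22%), with 226 higher (1.58%) and 378 lower (2.64%) at passage 15. Replicates lay close together, so many called genes moved little, and the median log2 fold change of all genes tested was -0.0035. With the spread estimated over all 21 libraries, in which wild-type passage 15 varies most, 2717 genes were called, and 449 were called against a fold change of 1.5.

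**Figure D1:**
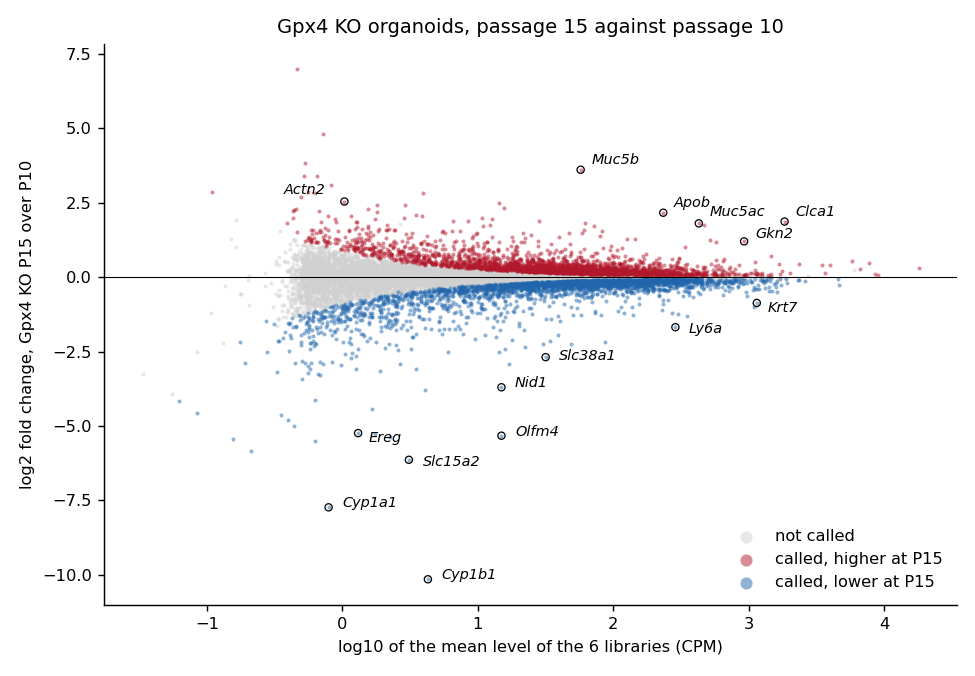
Log2 fold change of passage 15 over passage 10 in Gpx4 knockout organoids (vertical axis) against the mean level in CPM (horizontal axis, log scale), with each point 1 of 14303 genes tested. The labelled genes include Muc5b at log2 3.61, and Cyp1b1 and Cyp1a1, which had 0 counts at passage 15 and whose plotted values are fitted rather than bounds.

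The genes of surface mucous cells rose at passage 15. Among the 10 pit cell genes with a test, 8 rose and 0 fell, with a median log2 fold change of 0.75, against 18% higher and 20% lower over all genes tested. Muc5ac, the gel-forming mucin of the gastric surface (GRCm38 chromosome 7, 141788972 to 141819231), had 661, 666 and 668 CPM at passage 15, against 177, 194 and 201 CPM at passage 10. Every passage 15 library was more than 3 times as high as any passage 10 library, and the log2 fold change was 1.81 ± 0.0274 (adjusted p = 2.59e-56). The gastrokines, small secreted proteins of the same cells, moved alike. Gkn2 had 1269, 1279 and 1310 CPM at passage 15, against 575, 577 and 535 CPM at passage 10 (log2 1.20 ± 0.023, adjusted p = 4.48e-39). Gkn1 had 787, 792 and 800 CPM at passage 15, against 373, 356 and 338 CPM at passage 10 (log2 1.17). Tff1, the surface trefoil peptide, rose less (log2 0.70), as did Mucl3 (0.71). Psca, a surface antigen, averaged 111 CPM at passage 15 and 105 CPM at passage 10, a difference that was not called. The summed level of the 10 genes was 4950 to 5048 CPM over the passage 15 libraries and 2489 to 2685 CPM over the passage 10 libraries.

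Mucins as a class rose, with 6 of 9 tested genes higher, 0 lower and a median log2 fold change of 0.92. Muc5b, a gel-forming mucin found mainly in airway and salivary secretions (chromosome 7, 141839070 to 141873084, the neighbour of Muc5ac), had 106, 109 and 104 CPM at passage 15, against 9.19, 7.68 and 9.17 CPM at passage 10. That was the highest fold change of any called protein-coding gene whose libraries did not overlap and which reached a mean of 1 CPM, at log2 3.61 ± 0.0604 (adjusted p = 1.14e-63). The membrane mucins Muc16 (log2 1.84) and Muc13 (log2 1.03) rose, averaging 1.98 and 2.38 CPM at passage 15. The membrane mucin Muc1 averaged 1192 CPM at passage 15 and 1106 CPM at passage 10, a log2 fold change of 0.12 that was called here but not with the spread of all 21 libraries. Muc4 and Muc20 were not called.

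Several secreted and surface proteins outside those lists rose as far. Clca1, a secreted protein that acts on mucus, had 2884, 2881 and 2887 CPM at passage 15, against 801, 795 and 786 CPM at passage 10 (log2 1.87 ± 0.0175, adjusted p = 1.23e-82). Apob, the structural protein of lipoproteins, had 380, 381 and 386 CPM at passage 15, against 82.8, 82.9 and 90.5 CPM at passage 10 (log2 2.16 ± 0.0301). Cd177, a glycolipid-anchored surface protein best known from neutrophils, had 723, 707 and 716 CPM at passage 15, against 213, 212 and 212 CPM at passage 10 (log2 1.76). In all 3 the groups lay far apart. The polymeric immunoglobulin receptor Pigr, which carries antibodies across epithelia, averaged 6918 CPM at passage 15 and 4717 CPM at passage 10 (log2 0.56), and complement factor B, Cfb, rose by log2 1.21. Among the 10 genes with the highest fold changes stood the heme-binding plasma protein Hpx (4.83 ± 0.434 CPM at passage 15, 0.917 ± 0.277 CPM at passage 10, log2 2.43), the steroid-metabolising aldo-keto reductase Akr1c14 (24.1 CPM at passage 15 and 4.35 CPM at passage 10, log2 2.49), Ceacam10 (25.9 CPM at passage 15 and 5.17 CPM at passage 10, log2 2.33) and the inflammasome protease Casp1 (2.58 CPM at passage 15 and 0.523 CPM at passage 10, log2 2.27). The others were the phosphatase subunits Ppp2r2b (log2 2.84) and Ppp1r3c (2.41), the glucose transporter Slc2a12 (2.84), the muscle actinin Actn2 (2.54) and the zinc finger gene Zfp345 (3.08), each under 7 CPM at passage 15. Without the second library of passage 10, Slc2a12 stood at log2 4.06 and Ppp1r3c at log2 3.03. Counts of Akr1c14 and Zfp345 are uncertain, since both belong to families with near-identical members.

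Genes of other cell types of the stomach went in both directions. Of 10 mucous neck and SPEM genes tested, 6 rose and 3 fell (median 0.13). Tff2, the neck cell trefoil peptide, had 99.7, 96.2 and 94.9 CPM at passage 15, against 26.0, 31.0 and 26.1 CPM at passage 10 (log2 1.82 ± 0.0508, adjusted p = 1.3e-47). The progenitor transcription factor Sox9 averaged 43.5 ± 1.09 CPM at passage 15 and 27.8 ± 0.297 CPM at passage 10 (log2 0.65), while the adhesion receptor Cd44 fell (log2 -0.43), as did Wfdc2 (log2 -0.22). Bhlha15 (chromosome 5, 144190286 to 144194441) had 11.2, 11.3 and 11.5 CPM at passage 15, against 6.26, 5.8 and 5.65 CPM at passage 10 (log2 0.95 ± 0.122, adjusted p = 4.21e-10). The Cre of these organoids is under control of this same locus, so the count may not reflect intact Mist1 transcript alone. Of the other 3 chief cell genes tested, the granule protein Rab3d (log2 0.48) and the secretory transcription factor Xbp1 (0.24) rose, and Pgc, progastricsin, fell (log2 -0.48). The parietal pump subunit Atp4a averaged 3.12 CPM at passage 15 and 1.58 CPM at passage 10 (log2 0.99). Of 12 stem and isthmus genes, 4 rose, led by Sox2 (33.2 CPM at passage 15 and 21.0 CPM at passage 10, log2 0.67), and 6 fell, among them the Wnt targets Lgr5 (log2 -0.21) and Axin2 (log2 -0.35). None of 10 enteroendocrine or 7 endothelial genes had enough counts to be tested.

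A few genes were nearly absent at passage 15 and clearly expressed at passage 10. Cyp1b1, a cytochrome P450 of the aryl hydrocarbon receptor (AhR) pathway (chromosome 17, 79701537 to 79715061), had 0 counts in all 3 passage 15 libraries, against 9.52, 9.27 and 6.88 CPM at passage 10. Taking 3 counts over the group as the floor, that was at least 142-fold lower, and its relative Cyp1a1 (0, 0 and 0 CPM at passage 15, against 0.717, 1.96 and 2.07 CPM at passage 10) was at least 26.7-fold lower. Bounds and count ratios cover counting error only. Both P450 genes were also scarce at passage 5, where the 3 libraries held 0, 0.267 and 0.0614 CPM of Cyp1b1 and 0 of Cyp1a1, so nearly all of their counts came from the passage 10 libraries. Ahrr, the receptor's repressor and itself an AhR target, was too scarce to test and had 1 count at passage 15, 26 at passage 10 and 2 at passage 5. Of the 18 tested genes of the AhR and phase 1 list 8 rose and 5 fell, both P450 genes among the falls. Ahr itself fell by 0.18 on the log2 scale, Tiparp, another AhR target, was not called (21.8 CPM at passage 15, 22.9 CPM at passage 10), and Aldh3a1 rose (log2 0.29).

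The start-site windows of the 2 P450 genes are shown because the AhR dimer binds the core GCGTG, printed in capitals (CACGC where it lies on the other strand). The windows run from 250 bases before to 50 after the start, from RefSeq on GRCm38.p6, Cyp1a1 at chr9:57697363-57697662 on the plus strand and Cyp1b1 at chr17:79715012-79715311 on the minus strand.
Cyp1a1: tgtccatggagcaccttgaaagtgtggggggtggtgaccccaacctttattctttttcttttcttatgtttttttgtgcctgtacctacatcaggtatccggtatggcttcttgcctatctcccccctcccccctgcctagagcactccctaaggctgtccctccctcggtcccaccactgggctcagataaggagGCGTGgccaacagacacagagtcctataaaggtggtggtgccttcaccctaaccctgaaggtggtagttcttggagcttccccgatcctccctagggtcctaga
Cyp1b1: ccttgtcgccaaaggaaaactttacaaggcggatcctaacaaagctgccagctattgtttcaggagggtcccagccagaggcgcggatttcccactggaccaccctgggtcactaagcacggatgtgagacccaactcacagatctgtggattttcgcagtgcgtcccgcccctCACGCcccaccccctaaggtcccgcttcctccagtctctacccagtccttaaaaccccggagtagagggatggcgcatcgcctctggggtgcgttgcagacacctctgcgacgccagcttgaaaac
Each window held 1 match, 54 bases upstream of the start in Cyp1a1 and 76 bases upstream in Cyp1b1. The core, searched on both strands, stood in 32.4% of 32851 such windows, so a match is common. Of 15 list members with a window, 7 held it, Tiparp among them, and a match describes the letters only.

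Olfm4, a secreted glycoprotein used as a stem cell marker in intestine (chromosome 14, 79984081 to 80023139), had 0.74, 0.589 and 0.819 CPM at passage 15, against 29.7, 29.3 and 28.4 CPM at passage 10 (log2 -5.32 ± 0.132, adjusted p = 2.01e-51). The peptide transporter Slc15a2 held 0.123, 0.0589 and 0.0585 CPM at passage 15, against 6.06, 5.79 and 6.49 CPM at passage 10 (log2 -6.13 ± 0.369). The centriole gene Cntln had 5 counts over the passage 15 libraries and 206 over the passage 10 libraries (log2 -5.36). Slc15a2 and Cntln were close to the counting floor at passage 15. Leaving out the second library of passage 15 gave log2 -6.87 for Cntln. The EGF receptor ligand Ereg had 3 counts at passage 15 and 119 at passage 10, a ratio of 42.4 (95% counting interval 14.2 to 209), and lysozyme Lyz2 had 3 counts at passage 15 and 55 at passage 10, a ratio of 19.6 (6.37 to 98.0). Wnt7a had 1 count at passage 15 and 58 at passage 10, a ratio of 62.0 (10.7 to 2490). The zinc finger genes Zfp951 (log2 -5.27) and Zfp268 (log2 -4.44) also fell, and both have near-identical copies. Zfp951 stood at log2 -6.48 without the third library of passage 15, and Zfp268 at log2 -5.56 without the second.

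Some of the genes that fell most were more abundant. Slc38a1, a glutamine transporter, had 8.26, 8.89 and 8.30 CPM at passage 15, against 54.6, 53.5 and 56.5 CPM at passage 10 (log2 -2.69 ± 0.0724, adjusted p = 1.02e-48). Osteopontin, Spp1, had 18.8, 16.2 and 15.7 CPM at passage 15, against 79.6, 78.6 and 81.0 CPM at passage 10 (log2 -2.24), and the membrane protein Emp1 had 32.0, 32.5 and 29.2 CPM at passage 15, against 143, 136 and 145 CPM at passage 10 (log2 -2.17). Ly6a, the Sca-1 antigen of regenerating epithelium, had 138, 133 and 137 CPM at passage 15, against 453, 446 and 418 CPM at passage 10 (log2 -1.68 ± 0.0274). No passage 15 library of these 4 genes reached a level near the lowest at passage 10. Ckap4, a membrane protein of the endoplasmic reticulum, averaged 12.6 ± 1.97 CPM at passage 15 and 55.6 ± 2.72 CPM at passage 10 (log2 -2.14). Ly6a has close relatives in the genome, so some of its reads may be shared.

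Basement membrane genes and their integrin receptors fell almost as 1 set. Of 21 genes tested, 19 fell and 1 rose (median log2 -0.49), against 20% lower over all genes tested. The type IV collagens form the scaffold of basement membranes, and Col4a2 had the largest fall of the list. Col4a2 (chromosome 8, 11312805 to 11449287) had 0.617, 0.53 and 1.05 CPM at passage 15, against 6.00, 5.58 and 7.27 CPM at passage 10 (log2 -3.08), and its partner Col4a1, with which it overlaps at the first bases, had 0.678, 1.59 and 0.702 CPM at passage 15, against 4.89, 6.66 and 4.58 CPM at passage 10 (log2 -2.41). The linker protein nidogen, Nid1, which was outside the list, had 2.10, 1.94 and 2.34 CPM at passage 15, against 26.3, 26.8 and 30.1 CPM at passage 10 (log2 -3.70 ± 0.124, adjusted p = 5.28e-42). In all 3 genes the passage 15 libraries lay below those of passage 10. Fibronectin, Fn1, averaged 2.82 ± 0.31 CPM at passage 15 and 9.44 ± 1.91 CPM at passage 10 (log2 -1.75), and Lamb1 fell (log2 -2.45) with uneven passage 15 libraries of 0.0617, 1.47 and 0.819 CPM.

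The laminins and integrins of epithelia fell by less. Laminin alpha 5, Lama5, averaged 352 ± 1.62 CPM at passage 15 and 498 ± 4.83 CPM at passage 10 (log2 -0.49). The collagen and laminin receptors Itga2 (348 CPM at passage 15 and 519 CPM at passage 10, log2 -0.57), Itga3 (172 CPM at passage 15 and 263 CPM at passage 10, log2 -0.61), Itga6 (277 CPM at passage 15 and 387 CPM at passage 10, log2 -0.47) and Itgb4 (151 CPM at passage 15 and 210 CPM at passage 10, log2 -0.47) moved with it, and the shared integrin subunit Itgb1 moved little (600 CPM at passage 15 and 650 CPM at passage 10, log2 -0.11). The member that rose was the laminin Lamb2 (57.0 ± 0.309 CPM at passage 15 and 46.1 ± 1.95 CPM at passage 10, log2 0.32). The anchoring collagen Col7a1 was not called.

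Genes of the YAP and regenerative list, the transcriptional co-activator program that responds to matrix and injury, fell in 12 of 16 cases and rose in 1 (median log2 -0.47). Ankrd1, a YAP target, had 6.23, 8.18 and 7.19 CPM at passage 15, against 39.6, 34.5 and 37.5 CPM at passage 10 (log2 -2.36 ± 0.0887, adjusted p = 1.17e-38). The matricellular target Ccn2 averaged 91.1 ± 2.97 CPM at passage 15 and 182 ± 4.38 CPM at passage 10 (log2 -0.99), while its relative Ccn1 fell by 0.22. The alarmin Il33 (165 CPM at passage 15 and 378 CPM at passage 10, log2 -1.19) and the surface glycoprotein mesothelin, Msln (727 CPM at passage 15 and 1458 CPM at passage 10), fell by amounts like that of Ccn2. Clu, which belongs to the same list, was the gene that rose (log2 0.10). Areg, an EGF receptor ligand, had 10.2, 9.01 and 9.83 CPM at passage 15, against 29.3, 30.7 and 30.7 CPM at passage 10 (log2 -1.64).

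The EGF receptor list, of ligands, receptors and feedback inhibitors, had 8 of 14 genes lower and 1 higher (median log2 -0.31). Besides Ereg and Areg, the ligands Hbegf (148 CPM at passage 15 and 196 CPM at passage 10, log2 -0.40) and Tgfa (79.2 CPM at passage 15 and 97.7 CPM at passage 10, log2 -0.30) fell. The receptor Egfr averaged 84.9 CPM at passage 15 and 129 CPM at passage 10 (log2 -0.59), Erbb3 rose (log2 0.20), and the feedback inhibitor Errfi1 fell (log2 -0.44). Keratins and squamous genes fell with them. Of 9 keratins, 7 fell and 1 rose (median log2 -0.51), with Krt7 at 810, 805 and 815 CPM at passage 15, against 1505, 1482 and 1463 CPM at passage 10 (log2 -0.87 ± 0.0176). The 3 squamous genes tested all fell, the cornified envelope proteins Sprr1a (15.5, 16.7 and 16.2 CPM at passage 15, against 65.2, 62.0 and 58.6 CPM at passage 10, log2 -1.93) and Ivl (log2 -1.04) and the keratin Krt4 (log2 -1.69). The basal squamous markers Krt5 and Trp63 had 0 and 1 counts at passage 15 and 7 and 0 at passage 10. Of 16 claudins and junction genes, 9 fell and 1 rose, and Cldn4 (22.7 CPM at passage 15 and 55.9 CPM at passage 10, log2 -1.29) and Cldn3 (6.40 CPM at passage 15 and 16.8 CPM at passage 10, log2 -1.39) fell most.

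**Figure D2:**
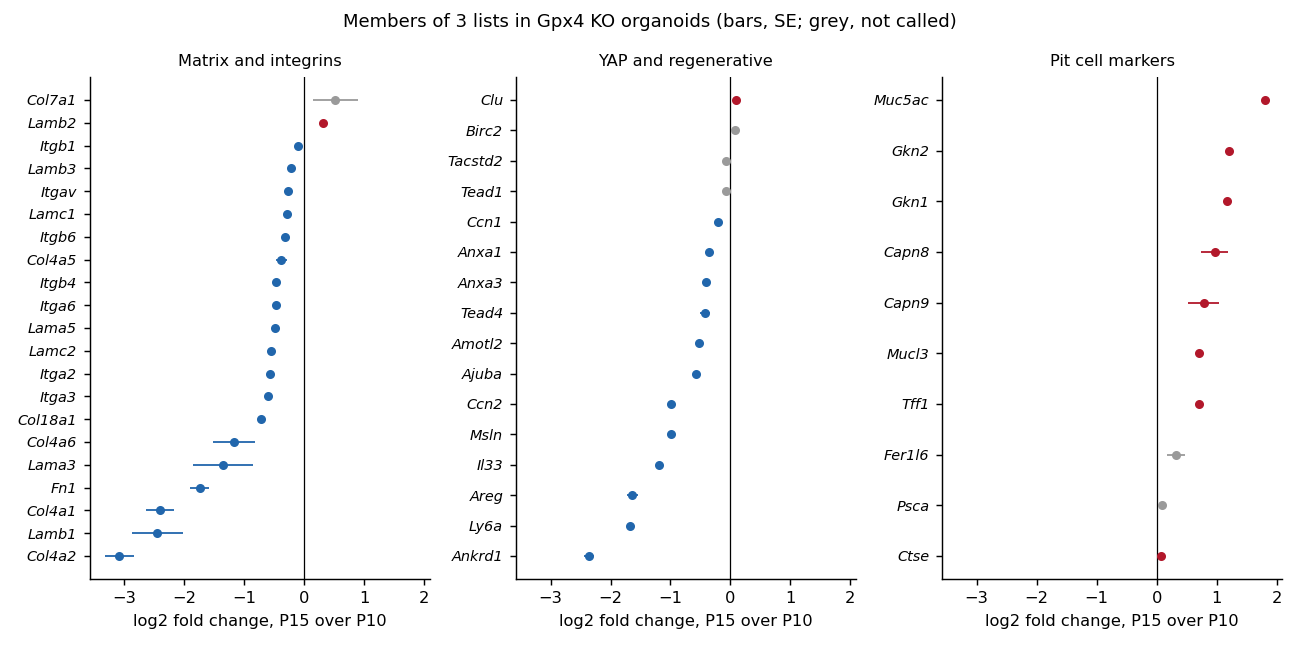
Log2 fold change of passage 15 over passage 10, with standard errors as bars, for every tested member of the matrix and integrin (21 genes), YAP and regenerative (16 genes) and pit cell (10 genes) lists, with grey for genes not called. Of the matrix and integrin genes 19 lie left of 0 as called, while 8 of the pit cell genes lie right of it.

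Windows of 2 genes that fell are shown for motifs of factors that act in these programs. Sprr1a (chr3:92485832-92486131, minus strand) is shown for the AP-1 motif TGANTCA, a palindrome counted once, and Ankrd1 (chr19:36119795-36120094, minus strand) for the TEAD motif CATTCC, read on both strands. Both are RefSeq windows on GRCm38.p6, and capitals mark the matches.
Sprr1a: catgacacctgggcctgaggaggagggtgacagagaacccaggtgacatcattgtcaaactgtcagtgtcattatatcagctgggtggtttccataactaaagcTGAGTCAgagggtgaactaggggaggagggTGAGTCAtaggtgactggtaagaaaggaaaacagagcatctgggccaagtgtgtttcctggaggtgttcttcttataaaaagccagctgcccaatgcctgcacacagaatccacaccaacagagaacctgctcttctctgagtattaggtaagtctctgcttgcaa
Ankrd1: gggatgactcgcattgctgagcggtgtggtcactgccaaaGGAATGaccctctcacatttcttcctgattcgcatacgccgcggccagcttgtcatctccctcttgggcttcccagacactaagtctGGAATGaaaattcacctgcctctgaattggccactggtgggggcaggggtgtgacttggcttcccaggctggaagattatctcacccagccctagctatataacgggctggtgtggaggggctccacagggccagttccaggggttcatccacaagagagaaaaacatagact
Sprr1a held TGAGTCA at 146 and at 116 bases upstream of the start, and Ankrd1 held GGAATG at 210 and at 123 bases upstream. The AP-1 motif stood in 7.8% of all windows and the TEAD motif in 14.7%. Of 16 YAP list members 8 had a window, and of these 6 held the TEAD motif and 0 the AP-1 motif. Among members with a window, the AP-1 motif stood in 1 of 15 matrix and integrin genes and 0 of 5 keratins. It stood in 2 of 2 squamous genes, Sprr1a and Ivl. Some members have more than 1 window, so these counts are not comparable with the shares of all windows, and a match describes the letters only. The 4 windows printed here held no motif of the other 2 kinds.

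Stress lists differed in direction at passage 15. Of 16 immediate early genes, the first to respond to stimuli, 12 fell and 1 rose (median log2 -0.32). Klf6 had 142, 144 and 153 CPM at passage 15, against 314, 320 and 310 CPM at passage 10 (log2 -1.10 ± 0.0282, adjusted p = 2.83e-50). The AP-1 subunit Fosb averaged 76.0 CPM at passage 15 and 152 CPM at passage 10, while the kinase phosphatase Dusp1 averaged 17.4 CPM at passage 15 and 46.7 CPM at passage 10 (log2 -1.42). Fos (400.3 CPM at passage 15 and 427 CPM at passage 10, log2 -0.09) and Egr1 (391 CPM at passage 15 and 490 CPM at passage 10, log2 -0.32) moved less, Junb was not called, and Klf4, a factor of differentiated surface epithelium, rose (log2 0.23).

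The integrated stress response and amino acid synthesis list had 15 of 22 genes lower and 2 higher (median log2 -0.30). Atf3, a stress-induced transcription factor, had 9.68, 11.1 and 10.5 CPM at passage 15, against 48.6, 49.1 and 51.2 CPM at passage 10 (log2 -2.25 ± 0.07, adjusted p = 3.07e-44). The glutathione-degrading enzyme Chac1 (2.09 CPM at passage 15 and 4.68 CPM at passage 10, log2 -1.15), the pseudokinase Trib3 (2.19 CPM at passage 15 and 4.52 CPM at passage 10, log2 -1.03), asparagine synthetase Asns (136 CPM at passage 15 and 182 CPM at passage 10, log2 -0.42) and the serine synthesis enzyme Phgdh (128 CPM at passage 15 and 177 CPM at passage 10, log2 -0.47) fell. Atf4, which drives this program and is largely regulated in translation, fell by 0.15, and Ddit3 was not called. Of 20 genes of the unfolded protein response of the endoplasmic reticulum, 7 rose, 3 fell and 10 were not called (median log2 0.04). Over all genes tested, 18% were higher and 20% lower. The genes that rose were led by Dnajb9 (72.6 CPM at passage 15 and 49.8 CPM at passage 10, log2 0.55). Of 13 heat shock genes 2 rose and 5 fell (median log2 0.01). Of 24 p53 targets, 15 fell and 1 rose (median log2 -0.18), the largest falls being the kinases Plk2 (79, 82.8 and 81.1 CPM at passage 15, against 197, 201 and 196 CPM at passage 10, log2 -1.28) and Plk3 (log2 -1.03). The cell cycle inhibitor Cdkn1a averaged 45.4 ± 2.78 CPM at passage 15 and 70.5 ± 3.44 CPM at passage 10 (log2 -0.63).

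Genes that defend cells against ferroptosis were modestly lower. Of 20 tested, Gpx4 included, 13 fell and 2 rose (median log2 -0.14). Slc7a11, the cystine importer that feeds glutathione synthesis, had 294, 306 and 301 CPM at passage 15, against 462, 468 and 496 CPM at passage 10 (log2 -0.66 ± 0.0239, adjusted p = 1.5e-39). Its partner chain Slc3a2 (114 CPM at passage 15 and 151 CPM at passage 10, log2 -0.40) and the ferritin heavy chain Fth1 (632 CPM at passage 15 and 805 CPM at passage 10, log2 -0.34) fell. Aifm2, also called FSP1, which protects membranes through ubiquinone, fell by 0.33 on the log2 scale. The fatty acid desaturase Scd1 rose (210 CPM at passage 15 and 158 CPM at passage 10, log2 0.42), and Dhodh and Gch1, enzymes of the ubiquinone and tetrahydrobiopterin routes, were not called. With the spread of all 21 libraries, 7 of the 20 defence genes fell. Of 15 genes that promote ferroptosis or mark it, 8 fell and 3 rose. Ptgs2, a prostaglandin synthase used as a marker of it, had 6.41, 6.36 and 7.25 CPM at passage 15, against 30.2, 29.8 and 27.3 CPM at passage 10 (log2 -2.11 ± 0.0949). The phospholipid-remodelling enzyme Lpcat3 rose (176 CPM at passage 15 and 132 CPM at passage 10, log2 0.42), and Acsl4, which activates polyunsaturated fatty acids, was not called at 296 CPM at passage 15 and 305 CPM at passage 10.

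Antioxidant genes moved in both directions. Of 25 targets of the transcription factor NRF2, 15 fell and 5 rose (median log2 -0.09). Thioredoxin reductase Txnrd1 (443 CPM at passage 15 and 590 CPM at passage 10, log2 -0.41), the glutamate-cysteine ligase subunits Gclc (log2 -0.23) and Gclm (log2 -0.30) and heme oxygenase Hmox1 (log2 -0.62) fell, whereas the carbonyl reductases Cbr1 (log2 0.31) and Cbr3 (log2 0.33) rose. With the spread of all 21 libraries, 8 NRF2 targets fell and 2 rose. Of 27 glutathione enzymes 8 rose and 8 fell. The transferase Gsta3 had 728, 729 and 714 CPM at passage 15, against 315, 306 and 297 CPM at passage 10 (log2 1.25 ± 0.0222, adjusted p = 8.45e-62), the microsomal transferase Mgst1 averaged 162 CPM at passage 15 and 106 CPM at passage 10 (log2 0.63), and Gpx2, the epithelial glutathione peroxidase, averaged 699 CPM at passage 15 and 556 CPM at passage 10 (log2 0.34). The endoplasmic reticulum peroxidase Gpx8 fell (3.46 CPM at passage 15 and 9.60 CPM at passage 10, log2 -1.46). Gsta3 has close copies, so its count may include reads of its relatives. Of 20 selenoprotein genes 6 rose and 4 fell, with the selenium carrier Selenop at 203 ± 1.06 CPM at passage 15 and 133 ± 5.23 CPM at passage 10 (log2 0.61).

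Iron genes were also mixed, with 8 of 19 higher and 5 lower. The metalloreductase Steap4 had 93.8, 87.5 and 89.5 CPM at passage 15, against 29.3, 30.5 and 31.1 CPM at passage 10 (log2 1.58 ± 0.0503, adjusted p = 1.54e-43). Transferrin, Trf (205 CPM at passage 15 and 84.9 CPM at passage 10, log2 1.28), and the ferroxidase ceruloplasmin, Cp (449 CPM at passage 15 and 223 CPM at passage 10, log2 1.02), rose as well, while the transferrin receptor Tfrc fell (260 CPM at passage 15 and 327 CPM at passage 10, log2 -0.33).

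Mitochondrially encoded transcripts rose, with 11 of 13 called higher, 0 lower and a median log2 fold change of 0.37. The cytochrome oxidase subunit mt-Co1 had 20090, 19820 and 19700 CPM at passage 15, against 16090, 16040 and 16050 CPM at passage 10 (log2 0.31 ± 0.0143). Over the 13 genes the summed level was 47960 to 48720 CPM at passage 15 and 37540 to 38050 CPM at passage 10. The nucleus-encoded respiratory genes moved less, with 9 of 20 higher and 2 lower (median log2 0.06). Of 16 fatty acid oxidation and PPAR genes 9 rose, led by the peroxisomal enzyme Ehhadh (12.5 CPM at passage 15 and 6.03 CPM at passage 10, log2 1.05), and 2 fell, the lipid droplet coat Plin2 (log2 -0.93) and the lipase inhibitor Angptl4 (log2 -1.46). Of 26 hypoxia and glycolysis genes 17 fell and 4 rose (median log2 -0.10), among them lactate dehydrogenase Ldha (log2 -0.20) and the glucose transporter Slc2a1 (log2 -0.38). In cholesterol synthesis 11 of 21 genes rose and 5 fell, and 1 and 3 with the spread of all 21 libraries. Those that rose did so by at most log2 0.23.

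Proliferation genes were lower by small amounts. Of 20 mitotic genes 15 fell and 0 rose (median log2 -0.17), from the proliferation marker Mki67 (774 CPM at passage 15 and 840 CPM at passage 10, log2 -0.11) to cyclin Ccnb1 (122, 108 and 116 CPM at passage 15, against 164, 152 and 156 CPM at passage 10, log2 -0.44). Of 22 DNA replication genes 9 fell and 1 rose, the thymidylate synthase Tyms (129 CPM at passage 15 and 92.8 CPM at passage 10, log2 0.49). Without the second library of passage 10, 5 replication genes fell, and with the spread of all 21 libraries 6 mitotic genes did. The Wnt list had 9 of 15 genes lower and 1, the ligand Wnt4, higher (log2 0.57), and the mediator Ctnnb1 averaged 732 CPM at passage 15 and 934 CPM at passage 10 (log2 -0.35).

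A list of transcription factors of stomach and gut identity had 11 of 24 genes higher and 6 lower (median log2 0.15). The homeobox genes Irx5 (13.8, 14.1 and 12.5 CPM at passage 15, against 6.97, 6.59 and 5.98 CPM at passage 10, log2 1.06), Irx2 (6.08 CPM at passage 15 and 2.35 CPM at passage 10, log2 1.37) and Pitx1 (28.6 CPM at passage 15 and 12.7 CPM at passage 10, log2 1.19) rose most. Spdef, which drives mucous differentiation in gut epithelia, rose (26.6 CPM at passage 15 and 19.9 CPM at passage 10, log2 0.43), as did Foxa1 (log2 0.29) and Foxa3 (log2 0.32), and Hnf4g fell (2.33 CPM at passage 15 and 5.03 CPM at passage 10, log2 -1.09). Of 6 intestinal genes tested 3 rose, Spink4 (log2 1.23), the lectin Lgals4 (log2 0.66) and Reg3g (log2 0.34), and 1, the microvillus protein Vil1, fell (log2 -0.16), with a median of 0.58. Inflammatory mediators divided, with 7 of 22 NF-kB genes higher and 10 lower. The neutrophil attractant Cxcl1 rose (85.6 CPM at passage 15 and 52.3 CPM at passage 10, log2 0.72), and the cytokines Il1a (43.7 CPM at passage 15 and 102 CPM at passage 10, log2 -1.21), Csf2 (3.36 CPM at passage 15 and 11.3 CPM at passage 10, log2 -1.74) and Csf3 (1.47 CPM at passage 15 and 5.51 CPM at passage 10, log2 -1.89) fell. The imprinted growth regulator H19 was called higher, but its libraries overlapped (0.0617, 2.59 and 1.52 CPM at passage 15, against 0, 0.145 and 0 CPM at passage 10).

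**Figure D3:**
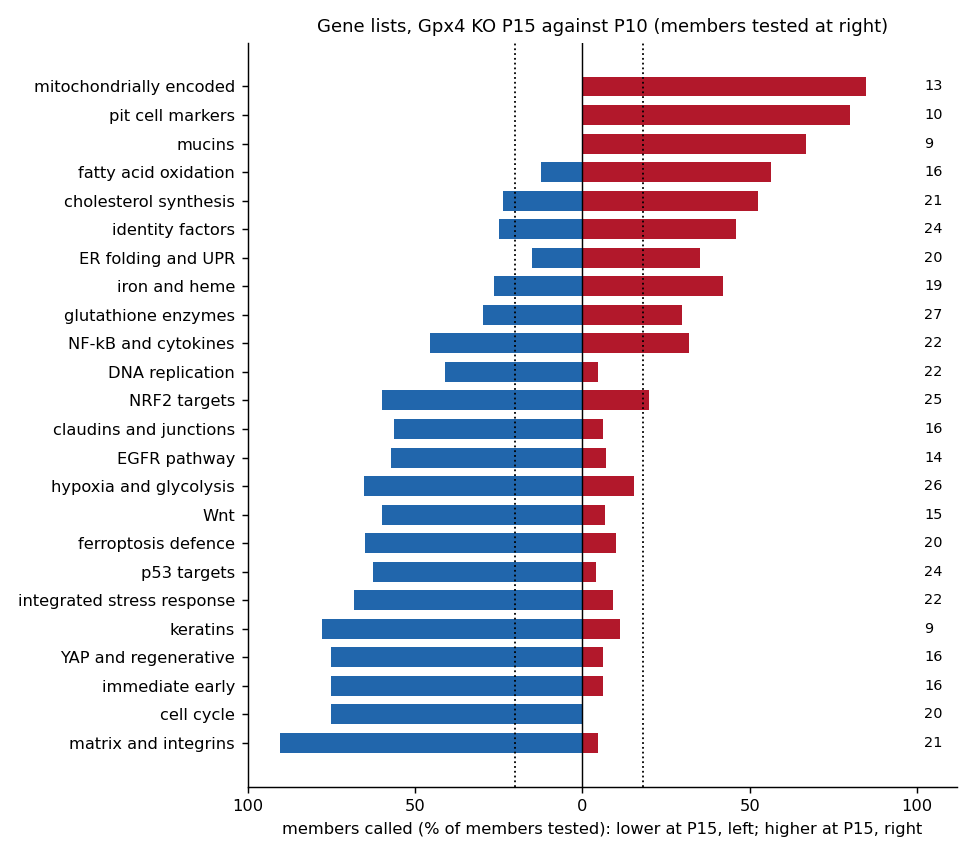
Share of tested members called lower (left) and higher (right) at passage 15 against passage 10, in percent, for 24 gene lists, with the number tested at the right edge. Dotted lines mark the share over all genes tested, 20% lower and 18% higher, and the matrix and integrin list (19 of 21 lower) and the mitochondrially encoded genes (11 of 13 higher) lie far outside them.

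Passage 5 gives the level from which passage 10 departed. The steps share the passage 10 libraries, so a chance deviation there moves them in opposite directions, and each step is given with its own values. From passage 5 to 10, 3209 genes were called (22.4%), and between passages 15 and 5 4410 were called (30.8%). The difference of the steps, tested in the same fit as the later step minus the earlier one, was called in 4553 genes (31.8%), 2144 higher (15%) and 2409 lower (16.8%).

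Of the 10 pit cell genes, 9 rose and 1 fell at the step to passage 10, and 8 rose at the step to passage 15. Muc5ac averaged 58.1 CPM at passage 5, 191 CPM at passage 10 and 665 CPM at passage 15, with steps of log2 1.71 and 1.81 whose difference was not called (0.09 ± 0.0542, adjusted p = 0.2). Gkn1 averaged 162, 355 and 793 CPM at passages 5, 10 and 15, with a difference of steps of 0.04 ± 0.043. Clca1, which is not on the pit cell list, averaged 248, 794 and 2884 CPM in the same order. Olfm4 fell at each step, averaging 148, 29.1 and 0.716 CPM, and its later step was the larger (difference -2.98 ± 0.196, adjusted p = 4.31e-23).

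Other genes turned at passage 10. Muc5b had 139, 138 and 140 CPM at passage 5, so its 3 passage 10 libraries, at 7.68 to 9.19 CPM, stood below the libraries of both other passages, and its difference of steps was log2 7.60 ± 0.11. Apob averaged 282, 85.4 and 382 CPM at passages 5, 10 and 15 (difference 3.88), Tff2 averaged 98.3, 27.7 and 96.9 CPM (3.66), and the ectonucleotidase Enpp3 averaged 66.2, 12.2 and 44.6 CPM (4.33). Akr1c14 followed with 14.8, 4.35 and 24.1 CPM (4.28). Bhlha15 averaged 10.4, 5.90 and 11.3 CPM and Irx5 13.8, 6.52 and 13.5 CPM, so at passage 15 both were again near their passage 5 level. The podoplanin gene Pdpn had its large difference (7.23) from the earlier step alone, at 8.49 CPM at passage 5 and 0.105 and 0.222 CPM at passages 10 and 15.

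The reverse shape, a peak at passage 10, was seen in Csf3 (1.48, 5.51 and 1.47 CPM at passages 5, 10 and 15, difference -3.80), Fn1 (2.70, 9.44 and 2.82 CPM, -3.56) and Sprr1a (30.9, 61.9 and 16.1 CPM, -2.93), besides Cyp1b1 and Cyp1a1. Nid1 (20.2, 27.7 and 2.13 CPM, -4.16), Col4a2 (difference -3.88), Slc15a2 (3.14, 6.11 and 0.0802 CPM, -7.10) and the cornified envelope gene Cnfn (8.21, 7.59 and 0.534 CPM, -3.67) fell at the later step only or mainly then. By list, the steps of the matrix and integrin genes differed downward in 17 of 21 members and upward in 0, those of the cell cycle genes downward in 17 of 20, and those of the mitochondrially encoded genes upward in 10 of 13. These counts rest on the passage 10 libraries in both steps.

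**Figure D4:**
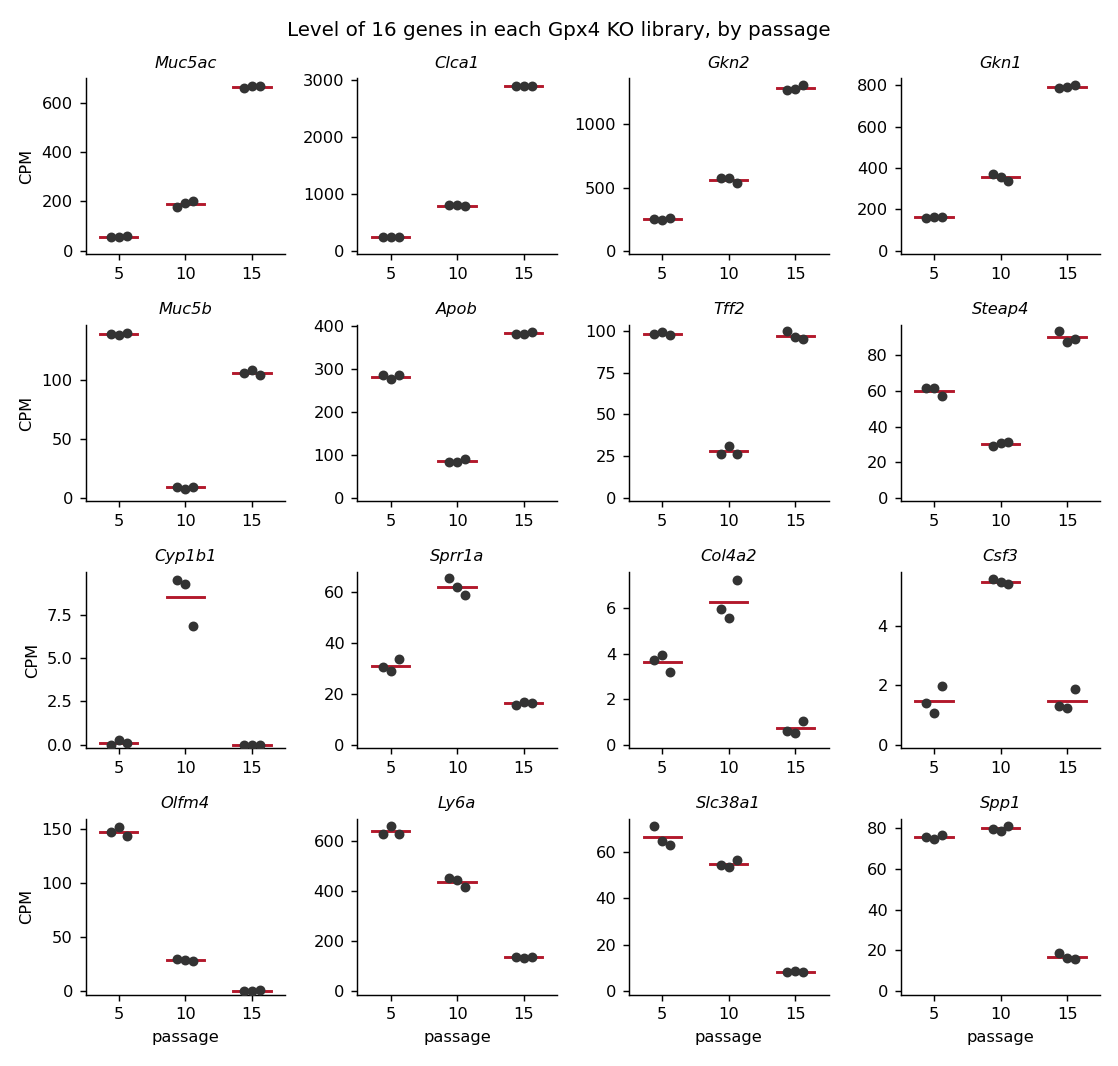
Levels in CPM of 16 genes in Gpx4 knockout organoids at passages 5, 10 and 15, with a point for each library and a short bar at each mean. Each panel has its own linear scale. Muc5ac and Clca1 climb at each step, Muc5b, Apob and Tff2 are lowest at passage 10, and Sprr1a, Csf3 and Cyp1b1 are highest there.

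The knockout step from passage 10 to 15 was compared with that of wild-type Mist1+ organoids at the same passages. The labels do not say whether a group holds more than 1 culture. A difference between cultures or batches therefore cannot be told apart from one of genotype. The difference, the knockout step minus the wild-type step, was called in 6509 of 14940 genes (43.6%), 3147 of them higher (21.1%) and 3362 lower (22.5%). The wild-type passage 15 libraries varied far more than any other group, and that spread enters this test. Without any 1 library, the count was 5774 to 8498. The wild-type step alone had 53% of genes called, 27.2% higher and 25.7% lower.

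Most pit cell genes moved in opposite directions in the 2 genotypes. Muc5ac averaged 665 CPM at passage 15 and 191 CPM at passage 10 in the knockout, while in wild type it had 25.65, 38.49 and 23.83 CPM at passage 15, against 269, 274 and 275 CPM at passage 10. The difference was log2 5.09 ± 0.157 (adjusted p = 4.14e-14). Gkn2 averaged 1286 CPM at passage 15 and 562 CPM at passage 10 in the knockout, against 233 CPM at passage 15 and 1817 CPM at passage 10 in wild type (4.22 ± 0.138), and Clca1 averaged 2884 CPM at passage 15 and 794 CPM at passage 10 in the knockout, against 1052 CPM at passage 15 and 3145 CPM at passage 10 in wild type (3.51). All 10 pit cell genes tested had a called positive difference, with a median of 3.61, as did 7 of 9 mucins. At passage 10 the knockout levels of these 3 genes lay under those of wild type, and at passage 15 above them. Muc5b (difference 6.83), Apob (5.33) and Bhlha15 (2.30) followed the same pattern of rising in the knockout and falling in wild type.

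The genes at both ends of this difference were named for its size, so their values are a description. Those with the highest differences mostly rest on a fall in wild type. Enpp3 averaged 44.6 CPM at passage 15 and 12.2 CPM at passage 10 in the knockout, against 0.514 CPM at passage 15 and 119.6 CPM at passage 10 in wild type (difference 9.83 ± 0.177). Irx5 had 0 counts in wild type at passage 15 and averaged 7.14 CPM there at passage 10, at least 110-fold lower, and Irx2 was at least 30.3-fold lower in wild type. Fitted differences of genes at 0 in a group (10.97 for Irx5, 9.44 for Irx2) depend on the prior count. Plbd1, a phospholipase-like lysosomal protein (7.18), followed the same pattern. The zinc finger gene Zfp987 (7.84), which has near-identical copies, fell in the knockout too, but was at 0 counts in wild type at passage 15, at least 129-fold lower. The lipase Lipo3 (7.92) had 1 count in wild type at passage 15 and 455 at passage 10.

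Most of the genes named for the lowest differences fell in the knockout and rose in wild type. Ereg averaged 0.0617 CPM at passage 15 and 2.55 CPM at passage 10 in the knockout, against 40.27 CPM at passage 15 and 1.605 CPM at passage 10 in wild type (difference -9.82 ± 0.472). Col4a2 averaged 0.733 CPM at passage 15 and 6.28 CPM at passage 10 in the knockout, against 46.3 CPM at passage 15 and 1.40 CPM at passage 10 in wild type (-8.06), Col4a1 did likewise (-7.10), and Krt4 averaged 226 CPM at passage 15 and 4.45 CPM at passage 10 in wild type (-7.30). Ly6a averaged 136 CPM at passage 15 and 439 CPM at passage 10 in the knockout, against 904 CPM at passage 15 and 412 CPM at passage 10 in wild type (-2.76), and Spp1 differed by -2.95. The kinase Hunk (fitted difference -7.82) had 0 counts in wild type at passage 10 and averaged 1.405 CPM there at passage 15, at least 24.8-fold higher, while its fall in the knockout was small (log2 -0.31) and lost the call without any 1 library of passage 10 and without the second or the third of passage 15. Zfp951 differed by -7.62. The YAP and regenerative list had 13 of 16 members lower by this difference and 1 higher, the matrix and integrin list 8 of 21 lower and 3 higher. All 28 ribosomal protein genes tested were lower by it (median -0.72), although in the knockout 11 of them rose and 3 fell by small amounts. That count of 11 was 18 without the first library of passage 10, and 5, 5 and 6 without the third of passage 10, the first of passage 15 and the third of passage 15.

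Some falls were seen in both genotypes. Olfm4 averaged 0.716 CPM at passage 15 and 29.1 CPM at passage 10 in the knockout, against 1.11 CPM at passage 15 and 34.1 CPM at passage 10 in wild type, and the difference of log2 -0.35 ± 0.243 was not called (adjusted p = 0.366). Nid1 fell by 3.70 in the knockout and by 3.25 in wild type on the log2 scale (difference -0.44 ± 0.244, adjusted p = 0.15), and Cntln fell by 5.36 in the knockout and by 5.40 in wild type (difference 0.05, adjusted p = 0.978). Cyp1b1 had 2 counts over the wild-type passage 15 libraries and 114 over those of passage 10. A difference that misses the threshold does not show that the genotypes acted alike. Gpx4 itself did not pass this test (difference -0.43 ± 0.203, adjusted p = 0.0927), with wild-type libraries at passage 15 between 108 and 193 CPM.

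**Figure D5:**
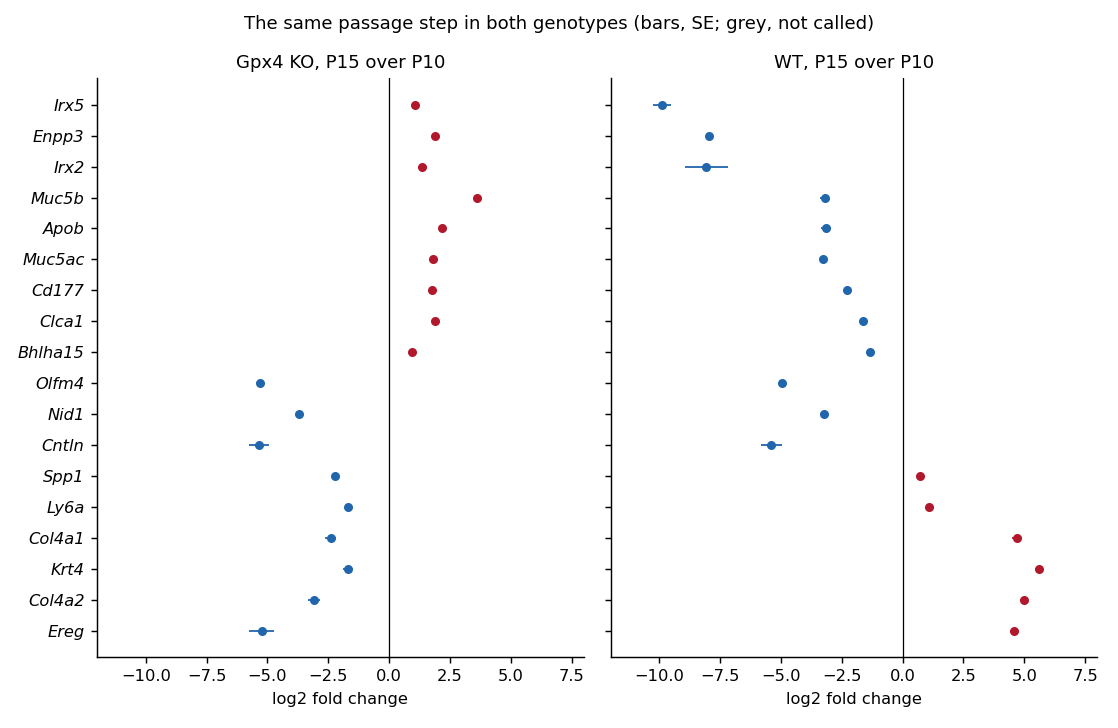
Log2 fold change of passage 15 over passage 10 in Gpx4 knockout organoids (left) and in wild-type Mist1+ organoids (right) for 18 genes, with standard errors as bars. Wild-type values of Irx5 and Irx2, at 0 counts at passage 15, are fitted rather than bounds. Muc5ac, Clca1, Muc5b and Apob lie above 0 in the knockout and below 0 in wild type, while Ereg, Col4a1, Col4a2, Krt4, Ly6a and Spp1 do the opposite and Olfm4, Nid1 and Cntln lie below 0 in both.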

How the data were processed

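Bulk RNA-seq of mouse stomach organoids was analysed in 21 libraries. The deposited table gives raw counts per gene for 56691 genes, counted by the authors, and FPKM values computed by the authors. All FPKM values (100%) matched the count divided by gene length and library size to within 0.006. The submitters' processing notes name cutadapt 1.9.1, HISAT2 2.2.1 and HTSeq 0.6.1 and GRCm38.p5. The strand setting is not given in the sources used here, so overlapping and antisense genes are uncertain. The table's coordinates matched GENCODE M21 in 1435 of 52073 shared genes, so gene positions are those of GENCODE M21, and the table's own were not used. The 6 samples of sorted cells in the series were not analysed here.

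Counts of the 9 knockout libraries went into 1 edgeR 4.0.16 model (R 4.3.3) of group means, with TMM scaling, filterByExpr (minimum count 10, minimum total 15) and the robust quasi-likelihood F-test, with Benjamini-Hochberg adjusted p over the 14303 genes tested, which held 99.88% of counts. The knockout and wild-type steps were compared in the 18 Mist1+ libraries (14940 genes). CPM is the count over the library total. The standard error is the log2 fold change over the square root of F. Alternatives were other scalings, filters and fits, DESeq2 1.42.0, limma 3.58.1 on log2(FPKM + 1) or log2(FPKM + 0.1), and each library left out. The code was tested on simulated counts, with 1 draw per comparison. In each draw 200 genes were changed, all from those with a mean count of at least 10. Far fewer genes were changed there than were called in the data, so the shares hold for that setting only. Of the calls there, 9.38% were false for knockout passage 15 against passage 10. The share was 7.19% for the difference of steps and 5.44% for the genotype difference. Each share lay above the threshold set for adjusted p. Simulated 1.5-fold changes were recovered in 77.61%, 62.69% and 43.28% of cases in the same order, and 4-fold changes in 96.97%, 93.94% and 90.91%.

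The 55 gene lists (966 entries, 783 tested) and the comparison were chosen with earlier results of these data known. Beside list members, Gpx4 and Bhlha15, genes are named by rank. The first ranks are among called protein-coding genes whose libraries did not overlap, with a mean of at least 1 CPM in the higher group. They give the 10 highest and 10 lowest, and the 6 highest and 6 lowest of at least 50 CPM. They also give the 5 most abundant each way with 3 counts or fewer in 1 group. The 6 at each end of the difference of steps and of the genotype difference were ranked among protein-coding genes called for that difference. These needed a mean of at least 5 CPM in 1 of the groups, and their libraries were allowed to overlap. Up to 4 members of a list are named by smallest adjusted p. Other members, and H19, were chosen after their values were seen. Promoter windows and motifs come from RefSeq on GRCm38.p6, with 32851 windows for 27025 genes.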

Additional observations from a re-analysis of the deposited data

Results flagged for a closer look

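The 43 genes considered here were named by default or by a rank other than that of the difference of steps, and some are also list members. Of these, 34 had a passage 15 over passage 10 change in the knockout that differed from that in wild type by the edgeR quasi-likelihood test, against 43.6% of all genes tested. The 6 genes at each end of this difference were chosen for it, so their calls were fixed by that choice. Most of the others were chosen for a large knockout step, which is part of this difference. The count is thus a description, and the share over all genes is no fair measure for it. Values are log2 differences, the knockout step minus the wild-type step, and the wild-type passage 15 libraries, whose biological coefficient of variation was 20.25%, enter each. The difference was positive for Irx5 (10.97), Enpp3 (9.83), Irx2 (9.44), Slc2a12 (8.22), Actn2 (8.09), Lipo3 (7.92), Zfp987 (7.84), Plbd1 (7.18), Muc5b (6.83), Apob (5.33), Muc5ac (5.09), Akr1c14 (4.32), Cd177 (4.04), Casp1 (3.64), Clca1 (3.51), Ceacam10 (3.39), Bhlha15 (2.30), Ppp1r3c (2.19), Hpx (2.10) and Tff2 (1.38). It was negative for Ereg (-9.82), Col4a2 (-8.06), Hunk (-7.82), Zfp951 (-7.62), Krt4 (-7.30), Col4a1 (-7.10), Wnt7a (-7.05), Slc15a2 (-6.02), Zfp268 (-3.85), Slc38a1 (-3.83), Spp1 (-2.95), Ly6a (-2.76), Emp1 (-1.98) and Ckap4 (-1.83). The largest adjusted p was 0.0365, for Ppp1r3c. Slc2a12 and Actn2 were at 0 counts in wild type at passage 15, at least 4.67-fold and 5.25-fold lower there, so their fitted differences depend on the prior count, as do those of Irx5, Irx2, Zfp987 and Hunk.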

How the results depend on the processing

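With the spread estimated over all 21 libraries, 2717 genes were called between knockout passages 15 and 10 (1261 higher, 1456 lower), 1150 between passages 10 and 5, 1960 between passages 15 and 5, and 1985 for the difference of steps. Against a fold change of 1.5, 449 were called (183 higher, 266 lower, 365 of at least 2-fold), 201 between passages 10 and 5 and 457 between 15 and 5. Genes changed at least 2-fold numbered 244 with a mean FPKM of at least 1 and 120 with limma on log2(FPKM + 1), which shrinks low genes by construction. DESeq2 called 4458. Gpx4 missed the threshold with all 21 libraries (log2 -0.15, adjusted p = 0.521), against a fold change of 1.5 (-0.14) and without the first library of passage 10 (-0.10), where the cause was not tested. Without 1 library at a time, calls numbered 4733 to 5431 (2231 to 2567 higher, 2496 to 2877 lower, 585 to 637 of at least 2-fold), 2697 to 3154 between passages 10 and 5, 3741 to 4595 between 15 and 5, 3891 to 4389 for the steps and 5774 to 8498 for the genotype difference, and Gpx4 ranged over log2 -0.20 to -0.10. Deviations from group means correlated at -0.0202 to 0.0274 between same-numbered knockout libraries of different passages, and at -0.0549 to 0.0404 between other pairs. Libraries within a group differed little, so this check cannot tell whether the numbers pair them, and the labels do not say. With the replicate number as a block 5405 genes were called (2568 higher, 2837 lower), 607 of at least 2-fold, and Gpx4 stood at -0.14. In all, 213 genes were named. Of 4641 values over 22 settings for those other than Gpx4, 4449 kept direction and call, 192 lost the call and 0 reversed. Gpx4 is not among these values and lost its call in the settings given above. All 237 values of named step differences and 216 of genotype differences kept both, and 2195 of 2420 list counts moved by less than 1.5 times.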

Other observations

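The pathway annotation in the deposited table covers gene groups beyond the lists. Among 329 pathways with at least 15 tested genes, counts are given without a test, and 18% of all genes tested were higher at passage 15 and 20% lower. Butanoate metabolism had the highest share of members called higher, 12 of 17, followed by the breakdown of valine, leucine and isoleucine (26 of 48), ether lipid metabolism (16 of 30), fatty acid degradation (22 of 44), protein export (15 of 30) and steroid biosynthesis (9 of 18). Oxidative phosphorylation had 70 of 158 higher and 8 lower. The interaction of extracellular matrix with its receptors had the highest share called lower, 28 of 42, and ribosome biogenesis (39 of 82), leukocyte transendothelial migration (38 of 81) and ABC transporters (13 of 28) were among others often lower. Pathways share genes, and the matrix pathway overlaps the matrix and integrin list, so it is no separate support for it.

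Genes of cell types other than those of the stomach epithelium were mostly too scarce to test. The 8 fibroblast genes not tested held 82 counts in all over the passage 15 libraries and 19 over those of passage 10. The 7 endothelial genes held 75 counts at passage 15 and 18 at passage 10, and the 7 immune genes held 35 at passage 15 and 52 at passage 10.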
